A study of Arabidopsis thaliana with 6 samples.

Results

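ERF020, ERF021, ERF022 and ERF023 are 4 Arabidopsis transcription factor (TF) genes of the AP2/EREBP family, taken here by their AGI codes AT1G71520, AT1G71450, AT1G33760 and AT1G01250. They are 4 of the 1880 TF gene rows, and 4 of the 146 rows labelled AP2/EREBP, whose transcripts were measured by quantitative RT-PCR during somatic embryogenesis (SE). ERF022 and ERF023 were selected on the difference between genotypes in these same Ct values, and ERF020 and ERF021 as their close relatives, so that the genotype differences below are a description and were not tested. The explants were immature zygotic embryos (IZEs), taken from siliques 10 to 12 days after pollination and kept on a solid medium that contained 5 µM 2,4-D, a synthetic auxin. Explants of the tanmei (tan1-2) mutant and of the accession Col-0 were taken freshly isolated (0 d), after 5 d and after 10 d of culture, which gives 6 groups. TANMEI encodes a WD repeat protein needed for zygotic embryo development, and the mutant forms callus in place of somatic embryos. It was represented by 1 mutant allele, and the IZEs of both genotypes received the same medium.

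For each gene and group a single mean Ct was deposited, averaged over 3 biological replicates. Ct is the PCR cycle at which the product passes a detection threshold, so that a Ct lower by 1 cycle stands for a 2-fold higher transcript level. The spread between replicates is not known from these values, hence no difference could be set against replicate error and no test was run. Levels are given as log2 units, computed as the median Ct of a block of rows minus the Ct of the gene, where a block is 1 of 5 equal parts of the matrix in row order. The block that holds all 4 genes had a median Ct of 25.1 at 0 d, 25.2 at 5 d and 25.3 at 10 d in tanmei, and of 26.3, 25.3 and 24.4 at the same times in Col-0. A change of at least 2-fold was counted as a difference, and the first count of each comparison is given with the share of all rows past the same threshold. A row without a Ct moves only with the median of its block. Levels are compared within a gene, since each gene has its own primer pair.

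Factors with an AP2 domain bind short promoter elements and are best known for responses to ethylene, drought, cold and salt. ERF021, ERF022 and ERF023 belong to group III of the ERF family, the group of TINY and HARDY, which also holds the CBF/DREB1 regulators of cold acclimation. In embryogenic culture such factors are of interest because auxin-treated explants also respond to wounding and stress.

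All 4 genes lie on chromosome 1. In the RefSeq annotation of TAIR10.1, 5 protein-coding genes stand between ERF021 and ERF020.

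Because the same code can carry different profiles in the deposited matrix and in the study's supplementary list of modulated genes, each code was checked. ERF022 differed between both sources by a root mean square of 0.38 cycles over the 6 groups and ERF023 by 0.18 cycles. Each of them was nearest to its own code among the 729 genes of that list, the next nearest code being at 1.84 cycles for ERF022 and at 1.31 cycles for ERF023. ERF020 and ERF021 are not in the list, and their codes could not be checked in this way. Of the AP2/EREBP codes present in both sources, 58 of 71 matched within 1 cycle, with a median difference of 0.23 cycles. In the other families of the same block only 5 of 98 codes matched, and in the other 4 blocks 8 of 555. Names of rows outside the AP2/EREBP family are therefore given with their check.

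All 4 genes gave a Ct in each of the 6 groups, as did 1615 of the 1880 rows. As a check of the tissue, all 8 embryo marker rows had a Ct below 35 in every group. Their levels, summed on the linear scale, came to 7.48, 3.54 and 3.78 log2 units at 0, 5 and 10 d in tanmei, against 8.59, 7.11 and 5.68 in Col-0. Such a sum weighs most the rows with the highest level. These were ABI3 and FUS3 in the explants of both genotypes and in Col-0 culture, but PLT2 and LEC1 in tanmei culture. The median log2 change of the 8 rows from 0 d to 10 d was -1.04 in tanmei and -0.26 in Col-0. Rows of the tissues around the embryo were measured too. Of 5 seed coat rows between 3 and 5 gave a Ct in a group, TT2 giving none in Col-0 explants, and their summed level ranged from 3.25 to 4.01 in tanmei and from 3.37 to 4.35 in Col-0. Of 4 endosperm rows 3 or 4 gave a Ct, and their summed level ranged from 0.54 to 2.97 in tanmei and from 0.26 to 1.43 in Col-0. Of the 17 marker rows, the codes of 2 (ABI3 and PLT2) matched the study's list. Fewer cells of a type and less transcript per cell cannot be told apart in such whole-explant RNA.

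ERF022 was at its highest in Col-0 explants and low in the other groups. The mean Ct of ERF022 in tanmei was 30.1 at 0 d, 31.8 at 5 d and 31.3 at 10 d. In Col-0 it was 24.1 at 0 d, 31.6 at 5 d and 30.1 at 10 d. A single group stood apart, the fresh Col-0 explant, while the other 5 groups lay within 1.72 cycles of each other. On the level scale ERF022 was at -4.97, -6.62 and -5.98 log2 units at 0, 5 and 10 d in tanmei and at 2.23, -6.37 and -5.69 log2 units in Col-0. The tanmei explants thus had a level 146-fold lower than Col-0 explants, a log2 difference of -7.19, the 11th lowest of the 1880 rows and the 2nd lowest of the 146 AP2/EREBP rows. In culture the genotypes differed by -0.25 at 5 d and -0.30 at 10 d on the log2 scale, both under 2-fold. With the Ct values as deposited, set against no median, the difference at 10 d was -1.20 and so past 2-fold.

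ERF023 showed another time course. It was highest in the explants of both genotypes and declined further in the mutant. The mean Ct of ERF023 in tanmei was 20.2 at 0 d, 26.9 at 5 d and 30.4 at 10 d. In Col-0 it was 19.3 at 0 d, 22.0 at 5 d and 23.3 at 10 d. Every tanmei Ct was above the Col-0 Ct of the same day, and the distance grew with time in culture. The levels were 4.90, -1.70 and -5.06 log2 units at 0, 5 and 10 d in tanmei, against 6.99, 3.31 and 1.10 log2 units in Col-0. The log2 difference of tanmei minus Col-0 was -2.09 at 0 d, -5.01 at 5 d (39th lowest of all rows) and -6.16 at 10 d (24th lowest), the last being a 71.4-fold lower level. The difference at 0 d depended on the median, and was -0.88 with the Ct values as deposited, which is under 2-fold.

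ERF020 had the opposite direction, with higher levels in the mutant at each time. The mean Ct of ERF020 was 28.3, 27.8 and 26.8 at 0, 5 and 10 d in tanmei, against 31.8, 31.1 and 28.8 in Col-0. Each of the 3 tanmei Ct values was below each of the 3 Col-0 values. Levels of ERF020 were -3.21, -2.62 and -1.42 log2 units in tanmei, against -5.47, -5.87 and -4.32 log2 units in Col-0. The tanmei level was higher by 4.81-fold at 0 d, 9.53-fold at 5 d (73rd highest of all rows) and 7.47-fold at 10 d.

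ERF021 varied little between the groups. Its mean Ct was 30.9, 31.0 and 30.5 at 0, 5 and 10 d in tanmei, against 33.2, 31.7 and 30.9 in Col-0. The decimals of the Col-0 value at 10 d fit a mean of 2 replicates and not of 3. The level of ERF021 was higher in tanmei by 1.04, 0.66 and 1.24 on the log2 scale at 0, 5 and 10 d, so that it passed 2-fold at 0 d and at 10 d. The difference at 5 d was 1.10 with the mean of 50 stable rows, and so past 2-fold. The difference at 10 d was under 2-fold with other references, at 0.93 with the median of all rows, 0.98 with the mean of 50 stable rows and 0.34 with the Ct values as deposited. Its whole range over the 6 groups was 1.66 log2 units, and 1577 of the 1880 rows had a range at least as wide. By the same measure the range was 12.05 log2 units for ERF023, 8.85 for ERF022 and 4.45 for ERF020.

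**Figure D1:**
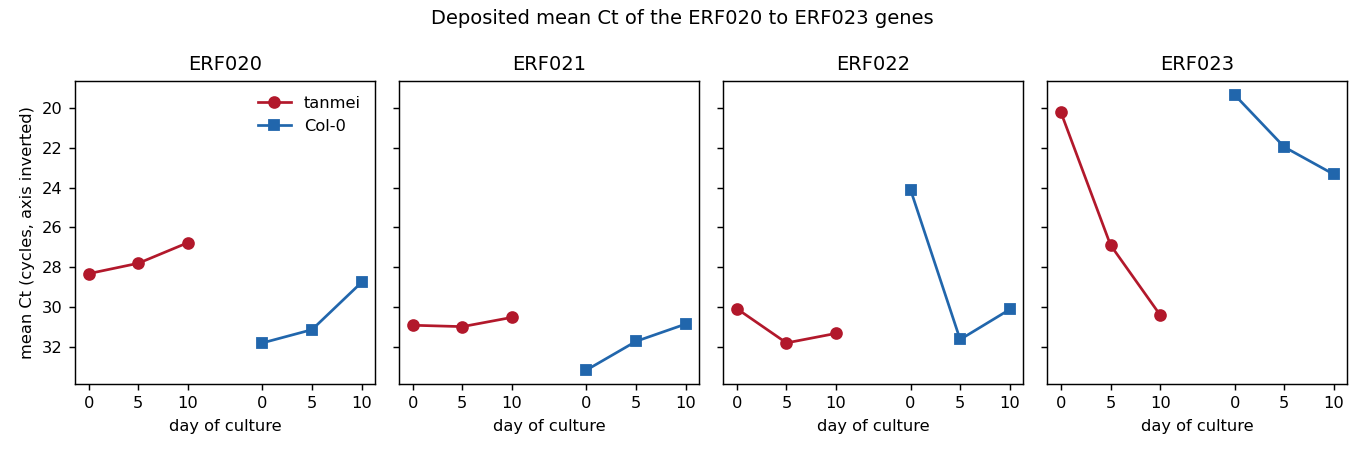
Deposited mean Ct (cycles, axis inverted so that a higher point is a higher transcript level) of ERF020, ERF021, ERF022 and ERF023 at 0, 5 and 10 days of culture, with tanmei as circles and Col-0 as squares. Each point is 1 deposited mean with no error known. ERF022 stands high only in Col-0 explants, at a Ct of 24.1, and ERF023 reaches a Ct of 30.4 in tanmei at 10 d.

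Set together, ERF020 and ERF021 were higher in tanmei where ERF022 and ERF023 were lower. At 0 d all 4 genes passed 2-fold, 2 higher and 2 lower in tanmei, where 23.6% of all rows were higher and 22.6% lower. At 5 d ERF020 was higher and ERF023 lower, against 23.1% higher and 21.2% lower among all rows. At 10 d ERF020 and ERF021 were higher and ERF023 lower, against 29.5% and 21.8% of all rows. Since the genotype difference of ERF022 and ERF023 chose them, nothing is read from these counts. In the whole AP2/EREBP family the median log2 difference was -0.25 at 0 d, 0.29 at 5 d and 0.47 at 10 d, beside -0.04, 0.11 and 0.25 for all rows.

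**Figure D2:**
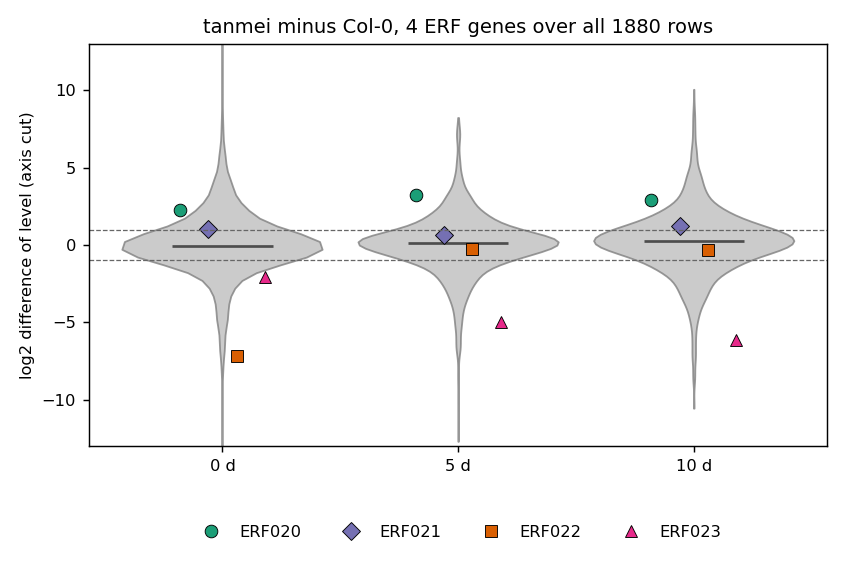
Log2 difference of level, tanmei minus Col-0, at 0, 5 and 10 d for ERF020 to ERF023 (coloured symbols) over the distribution of all 1880 rows (grey shapes, with the median as a bar). Dashed lines mark 2-fold, a row without a Ct was set to 40 cycles, and the axis is cut, so that the ends of some grey shapes are not drawn. ERF022 lies at -7.19 at 0 d and near 0 in culture, while ERF023 moves from -2.09 at 0 d to -6.16 at 10 d.

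The second question is how each gene changed during culture within a genotype. In Col-0 the onset of culture was the step at which ERF022 differed. Its level at 5 d was lower than at 0 d by a log2 change of -8.59, or 386-fold, the 14th lowest of all rows, and the change from 5 d to 10 d was 0.68. That later change passed 2-fold with the median of all rows (1.06), the 50 stable rows (1.13) and the Ct as deposited (1.51). In tanmei the matching changes of ERF022 were -1.65 and 0.64, and the change from 0 d to 10 d was -1.02, just past 2-fold. The change to 10 d was under 2-fold with the median of all rows (-0.55) and with the 50 stable rows (-0.34), and that to 5 d was -0.71 with the stable rows. The change at 5 d in tanmei minus that in Col-0 was 6.94, and at 10 d it was 6.90. Both follow from the explant value, which all changes since 0 d share.

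ERF023 was lower at 5 d and again at 10 d in both genotypes. In tanmei its log2 change was -6.60 from 0 d to 5 d and -3.36 from 5 d to 10 d. Over the whole culture this was -9.96, a 996-fold lower level and the 9th lowest of all rows. In Col-0 the steps were -3.68 and -2.21, with -5.89 over the whole culture, the 44th lowest. The change in tanmei minus that in Col-0 was -2.92 at 5 d and -4.07 at 10 d.

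ERF020 was higher at 10 d than at 0 d, by 1.78 on the log2 scale in tanmei and by 1.15 in Col-0. The change from 5 d to 10 d was 1.19 in tanmei and 1.55 in Col-0. In tanmei the order of the steps depended on the reference, since with the 50 stable rows the change was 1.53 to 5 d and 0.93 from 5 d to 10 d. For ERF021 the log2 changes between times ran from -0.003 to 0.62 in tanmei and from 0.04 to 0.41 in Col-0, all under 2-fold with the block median. This did not hold with other references. With the median of all rows, the 50 stable rows and the Ct as deposited, ERF021 changed in Col-0 by 1.05, 1.32 and 1.44 to 5 d and by 1.47, 1.81 and 2.31 to 10 d. In tanmei its change to 10 d was 1.09 with the median of all rows and 1.30 with the stable rows.

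Counted over the 4 genes, 0 were higher and 2 lower at 5 d than at 0 d in tanmei, where 29.2% of all rows were higher and 38.9% lower. The counts in Col-0 were also 0 and 2, beside 28% and 37.8% of all rows. At 10 d against 0 d, 1 gene was higher and 2 were lower in each genotype, with ERF022 in tanmei at the threshold. The shares of all rows were 30.8% higher and 36.9% lower in tanmei, and 28.2% and 41.9% in Col-0. From 5 d to 10 d, 1 gene was higher and 1 lower in each genotype, against 19.2% and 14.9% of rows in tanmei and 16.8% and 18.7% in Col-0. For the difference between the genotypes' changes, ERF022 was past 2-fold upwards and ERF023 downwards at 5 d, where 25.6% and 26.9% of all rows were. At 10 d the same held for these genes, beside 31.4% and 26.6%. With 4 genes, these shares do not set them apart as a group.

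**Figure D3:**
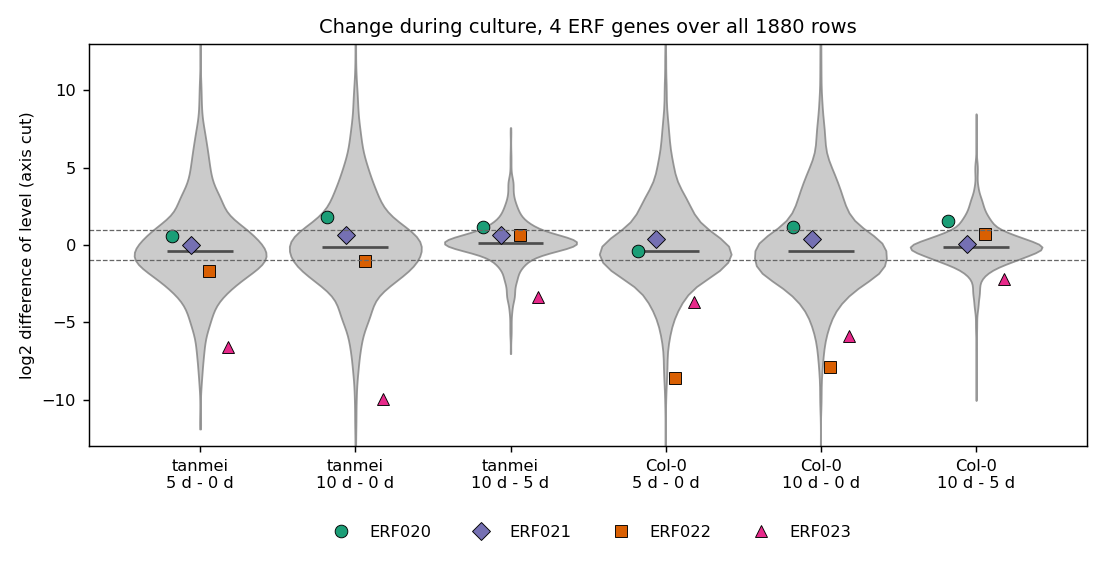
Log2 change of level between times in tanmei (left) and Col-0 (right) for ERF020 to ERF023 (coloured symbols) over the distribution of all 1880 rows (grey shapes, with the median as a bar). Dashed lines mark 2-fold, a row without a Ct was set to 40 cycles, and the axis is cut, so that the ends of some grey shapes are not drawn. ERF022 lies at -8.59 at 5 d in Col-0 and at -1.65 in tanmei, and ERF023 reaches -9.96 at 10 d in tanmei and -5.89 in Col-0.

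The 4 profiles were then set side by side after centring each on its own mean over the 6 groups. ERF020 and ERF021 had a Pearson correlation of 0.94 and a root mean square difference of 1.07 log2 units, and ERF022 and ERF023 of 0.65 and 3.09. These values describe 6 groups that share their explants and their block median.

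The rows whose profile was most like that of ERF022 were sought among 1614 other rows with a Ct in every group. The nearest were SNZ at a root mean square difference of 1.45, AGL96 at 1.49, AT1G75490 at 1.49, RAP2.10 at 1.49 and WRKY35 at 1.53 log2 units. SNZ, AT1G75490 and RAP2.10 are AP2/EREBP rows whose codes matched the study's list, while those of AGL96 and WRKY35 did not. SNZ (SCHNARCHZAPFEN) is an AP2-type repressor of flowering, and its level was -3.26, -5.15 and -7.83 log2 units at 0, 5 and 10 d in tanmei, against 2.84, -3.49 and -4.53 in Col-0. Like ERF022 it was highest in Col-0 explants. A Pearson correlation in place of the distance named 5 other rows, so that the order of likeness depends on the measure.

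For ERF023 the nearest rows were SAC51 (0.88), LBD8 (0.999), NAC096 (1.01), FUS3 (1.06) and AT2G31215 (1.30). None of these codes was matched to the study's list, which holds SAC51 and NAC096 with other profiles and does not hold LBD8, FUS3 or AT2G31215. By Pearson correlation SAC51 and AT2G31215 were again among the 5 nearest rows, while LBD8, NAC096 and FUS3 were not. FUS3 encodes a B3 factor of embryo maturation. Its level was 6.82, -0.66 and -2.90 log2 units at 0, 5 and 10 d in tanmei and 6.23, 5.31 and 3.34 in Col-0. ABI3, a further B3 factor of seed maturation whose code did match, was 11th in this order at 1.46. It was singled out after its values were seen. The other embryo marker rows were further off, LEC2 being 44th, BBM 436th, NF-YB6 460th, WOX2 800th and LEC1 870th. None of these codes was matched to the study's list, which holds NF-YB6 with another profile and does not hold the others. PLT2, whose code also matched, was 1354th and ran against ERF023, with a Pearson correlation of -0.75 over the 6 groups. The level of ABI3 was 5.83, -0.50 and -5.69 log2 units at 0, 5 and 10 d in tanmei, against 8.24, 6.46 and 4.87 in Col-0. Within the AP2/EREBP family the rows nearest to ERF023 were AT5G18450 at 1.71 and ABI4, a factor of abscisic acid response in seeds, at 1.78. Neither code is in the study's list.

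**Figure D4:**
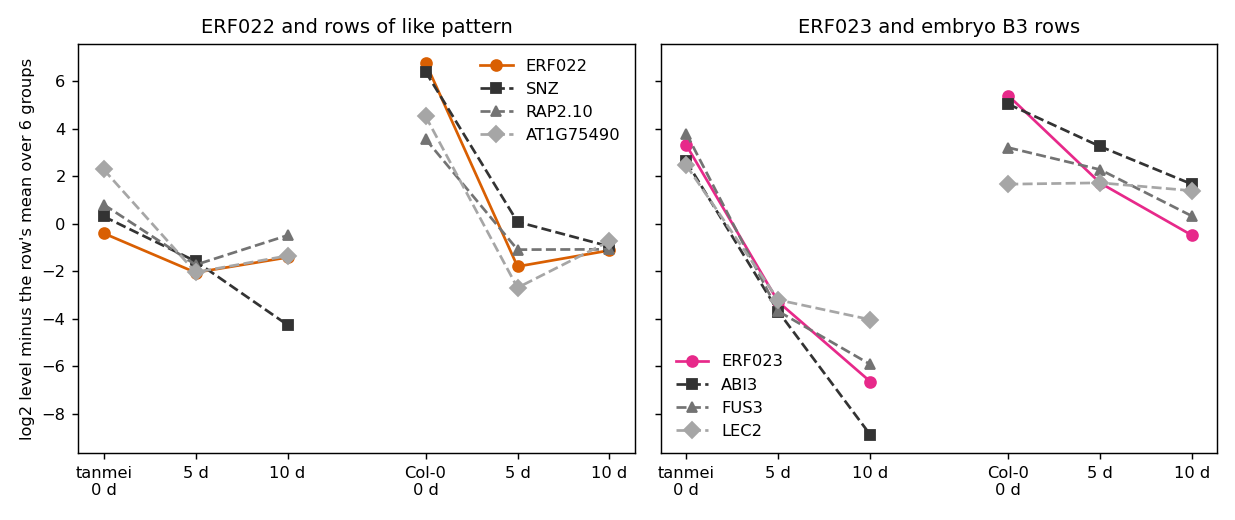
Log2 level minus the row's own mean over the 6 groups, for ERF022 with 3 AP2/EREBP rows of like profile (left) and for ERF023 with 3 B3 rows of embryo development (right), in tanmei and then Col-0 at 0, 5 and 10 d. ERF022 and SNZ peak in Col-0 explants. ERF023, ABI3 and FUS3 are lower in tanmei at 10 d, where their levels before the row mean was taken off were -5.06, -5.69 and -2.90 log2 units.

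Of the 14 other rows of group III without the CBF genes, 12 gave a Ct in every group, HRD and ESE2 being the exceptions. The counts that follow are over rows with a Ct in every group, beside the share of all 1615 such rows. In tanmei explants 4 of the 12 were higher past 2-fold and 3 lower, against 23% and 20.3%. At 5 d 6 were higher and 3 lower, against 22.7% and 20%, and at 10 d 6 and 1, against 26.7% and 20.9%. Their median log2 difference was 0.08, 0.84 and 1.19 at these times. Among all 14 rows HARDY (HRD) had the lowest value at 0 d, -33.05, which rests on a Ct of 5.36 in Col-0 explants, far below its Ct of 37.2 in tanmei explants, and it gave no Ct at 5 d. The next lowest at 0 d was AT5G52020, at -2.96, whose code did not match the study's list. AT3G60490 had the highest value at 0 d, 4.49, followed by ERF38 at 2.63, and both codes matched. At 5 d AT4G16750 was highest, at 3.31, and at 10 d TINY2, at 3.60. Among the 5 rows of this list with a matching code, 2 were higher and 2 lower at 0 d, 2 and 2 at 5 d, and 2 and 1 at 10 d.

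The 6 CBF/DREB1 rows shared with ERF022 a lower level at 5 d. In Col-0 all 6 were at least 2-fold lower at 5 d than at 0 d, with a median log2 change of -6.40, where 37.9% of the rows with a Ct in every group were lower. For CBF4, at -1.72, this depended on the reference. Its Ct was 22.4 at 0 d and 23.1 at 5 d, so that its change was under 2-fold with the Ct as deposited. In tanmei 4 of 6 were, with a median of -2.93, beside 38.9%. CBF1 had the lowest change in Col-0, -8.27, with -5.53 in tanmei. Between genotypes 0 of 6 were higher and 2 lower in tanmei at 0 d, beside 23% and 20.3% of those rows. DDF1 had the lowest value of -2.28, where ERF022 was at -7.19. The codes of CBF1, CBF2 and DREB1A matched the list, which holds CBF4 with another profile and does not hold DDF1 or DDF2. Between 5 d and 10 d, 4 of 6 were higher in Col-0, beside 15% of those rows, with a median of 2.31 and CBF2 the highest at 4.83, whereas ERF022 changed by 0.68.

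Ethylene signalling runs through the EIN3 and EIL factors, which switch on ERF1. Of 7 rows, EIL1 gave no Ct in any group. Of the other 6, 3 were higher and 1 lower in tanmei at 0 d, 1 and 2 at 5 d, and 2 and 0 at 10 d, beside the same shares of all rows with a Ct in every group as for group III. ERF1 was the highest at each time, at log2 differences of 5.12, 1.67 and 2.59, and is the only one whose code matched the list. Its mean Ct was 24.9, 27.0 and 24.1 at 0, 5 and 10 d in tanmei, against 31.3, 28.7 and 25.7 in Col-0. In explants, where ERF022 was lower in tanmei, ERF1 was higher. EIN3 had log2 differences of -1.08, -1.70 and 0.53.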

How the data were processed

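Transcripts of 1880 TF genes were measured by qRT-PCR with SYBR Green in 6 groups. The deposited values are a score, the mean Ct that the authors averaged over 3 biological replicates. In 97.8% of 10697 values the decimals fit a mean of 3 (tolerance 0.01), and 2.21% fit a mean of 2 only. The precision of each value is unknown. A table of fold changes, which holds the authors' own comparisons, was not used. Ct values of the reference gene UBQ were not used here, and the level was computed from the median Ct of each of 5 equal blocks of rows, counted in file order. A row without a Ct was set to 40 cycles. Groups came from the labels. For the code check, listed level plus Ct was set against its median, taken over the AP2/EREBP codes in the block that holds them. In each other block the median was over all codes present in both sources, most of which did not match. Named were the 4 genes, the 5 nearest rows of ERF022 and ERF023, and extremes of fixed lists. Members and lists were chosen with earlier results of these data known. Alternatives were other references, a Ct floor of 37, a 10-fold threshold, Pearson likeness and a 0.5-cycle tolerance. The search within AP2/EREBP rows, the counts over matching codes or rows with a Ct in every group and the form of the code check were added after the values were seen. Scripts, tested on simulated data, used Python 3.11.15, numpy 2.4.6, pandas 2.3.3 and matplotlib 3.10.9.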

Additional observations from a re-analysis of the deposited data

Results flagged for a closer look

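With the block median, the changes of ERF020 and ERF021 from 0 d to 5 d had opposite signs in tanmei and Col-0. The share of all rows with opposite signs was not computed, so nothing is read from this. The log2 change of ERF020 was 0.59 in tanmei and -0.40 in Col-0, a difference of 0.99. The log2 change of ERF021 was -0.003 in tanmei, too near 0 to give a direction, and 0.38 in Col-0, a difference of -0.38. The directions depended on the reference. With the median of all rows the change of ERF020 in Col-0 was 0.27 and that of ERF021 in tanmei 0.61, so that both genotypes then moved the same way. With the Ct as deposited the change of ERF020 in Col-0 was 0.67, and the difference between its changes in tanmei and Col-0 was -0.15. With the block median each of these changes was under 2-fold. With the median of all rows the change of ERF020 in tanmei was 1.20 and that of ERF021 in Col-0 1.05, both past 2-fold. Each group was 1 deposited mean, and the difference was not tested.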

How the results depend on the processing

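No paired analysis was possible because each group is 1 deposited mean. Of the 44 differences of the 4 genes (4 genes in 11 comparisons), all 44 stayed within 1.5-fold of their value with a Ct floor of 37 and with the median of block rows that gave a Ct in every group. The number was 28 with the median of all rows, 24 with the mean of 50 stable rows and 16 with Ct values as deposited. With Ct as deposited, the tanmei minus Col-0 difference of ERF022 was -5.98 at 0 d and -1.20 at 10 d, which passes 2-fold, and that of ERF023 was -0.88 at 0 d, which does not, and -7.07 at 10 d. Over all references the difference of ERF022 ranged from -7.19 to -5.98 at 0 d and that of ERF023 from -2.09 to -0.88. With Ct as deposited, the change at 10 d in tanmei minus that in Col-0 turned sign for ERF020 and ERF021. It went from 0.63 and 0.21 with the block median to -1.49 and -1.91, both past 2-fold. For ERF020 the same difference at 5 d turned from 0.99 to -0.15. With the mean of 50 stable rows, the change of ERF020 from 5 d to 10 d in tanmei was 0.93 and so under 2-fold. At a 10-fold threshold 1 gene remained past it between the genotypes at each of 0, 5 and 10 d, 1 in each tanmei time comparison, 1 for the difference of changes at 5 d and 0 from 5 d to 10 d in Col-0, where between 4.26% and 25.5% of all rows passed it either way. The reference thus decides differences near 2-fold and the changes of ERF021 in culture. For ERF020 and ERF021 it also decides the sign of the difference between the genotypes' changes at 10 d, and for ERF020 that at 5 d. ERF020 and ERF021 have no code check.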
